A study of Mus musculus with 6 samples.

Results

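The 36 genes described here encode the enzymes that bring pyruvate into the mitochondrion, turn the tricarboxylic acid (TCA) cycle and carry out mitochondrial β-oxidation of fatty acids. They were chosen by name from the deposited table of 55401 genes, with 5 genes of pyruvate entry, 15 of the TCA cycle and 16 of β-oxidation, and each of the 36 was found once. All 36 passed the filter on low counts, with 1072 to 26382 counts per gene and library. The data are poly(A) RNA-seq of primary mouse chondrocytes, cartilage cells taken into culture. There are 3 libraries titled Nf2-knockout and 3 titled control. The series describes the cells as floxed Nf2 (Nf2f/f) and its knockout, cultured with differentiation, so the controls carry the floxed allele. What drove the deletion, the strain, the age of the animals and the number of animals are not given in the sources used here. Library names carry the tag D7, which the labels do not explain.

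Pyruvate enters the cycle through the pyruvate dehydrogenase complex as acetyl-CoA, or through pyruvate carboxylase as oxaloacetate. The cycle then oxidises acetyl-CoA and hands electrons to the respiratory chain, and the isocitrate and 2-oxoglutarate dehydrogenase steps are its main control points. Long-chain fatty acids cross the inner membrane as carnitine esters and are shortened by repeated dehydrogenation, hydration, oxidation and thiolysis, with a dedicated electron transfer flavoprotein. Chondrocytes live in poorly vascularised tissue and are known for their reliance on glycolysis, and their use of mitochondrial oxidation changes with culture and differentiation.

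The libraries held 50906043 to 63748798 counts in Nf2-knockout and 55516143 to 61103617 in control. The labels do not say whether replicates are separate animals or cultures, so the p-values reflect library-to-library spread alone, which may be technical. Nf2, which encodes the Hippo regulator merlin, stood at 87.9, 100.6 and 97.3 CPM (counts after scaling by library size) in the 3 Nf2-knockout libraries, against 125.6, 132.6 and 122.2 CPM in the 3 controls. Its log2 fold change of −0.41 passed the test (edgeR adjusted p = 0.0305), and the call was lost in each of the 6 fits without 1 library (adjusted p from 0.0518 to 0.123). The counts cover the whole gene, so transcripts with and without the deleted exons were not separated. For the libraries titled Nf2-knockout the treatment field gives TCF21 overexpression, absent from the titles. Tcf21 had 0, 2 and 0 counts there, against 0 in every control library. The cartilage genes Sox9, Acan, Col2a1 and Comp were detected in all 6 libraries, while the cartilage matrix gene Matn1 averaged 2.35 CPM in Nf2-knockout, against 2.32 CPM in control. A list of 16 chondrocyte genes was mixed, with 9 negative and 7 positive log2 fold changes, from −1.55 to 1.33. Of the 16, 1 rose and 1 fell at an edgeR adjusted p under 0.05 (12.5%, against 9.29% of all tested genes). Summed CPM of 12 cell division genes was 700.2 to 750.7 in Nf2-knockout and 313.7 to 408.7 in control, that of 15 macrophage genes was 49.1 to 114 and 162 to 436, and that of 10 fibroblast genes was 14715 to 16727 and 18338 to 21562, each in the same order of groups. Sums of 16 chondrocyte genes (1070 to 2015 in Nf2-knockout, 947 to 1419 in control) and 12 adipocyte genes (1295 to 1623 and 1071 to 1511) overlapped, with Adipoq at 56.1 ± 1.78 and 57.3 ± 18.3 CPM. Skeletal muscle genes (10.4 to 20.7 and 12.6 to 27.4) and endothelial genes (14.8 to 20.8 and 16.6 to 26.6) summed low in both groups.

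Transcripts of the 36 oxidation genes were lower as a group in Nf2-knockout libraries. In total 14 of the 36 fell and 0 rose by edgeR's quasi-likelihood test (Benjamini-Hochberg adjusted p under 0.05 over 18218 tested genes), where 5.18% of all tested genes fell, 4.11% rose and 9.29% changed in either direction. With no adjustment, 22 of the 36 had an edgeR p under 0.05, all 22 of them lower; the share over all tested genes was 24.8%. DESeq2 also called 0 rises, with 13 falls and no rise among its 20 genes at an unadjusted p under 0.05. The median log2 fold change of the 36 was −0.28, against −0.01 for all tested genes. A negative sign was seen for 29 of the 36 and for 51.1% of tested genes. The 3 Nf2-knockout libraries lay below all 3 controls for 25 of the 36 genes (17.4% of all tested genes), above them for 1 (15.5%), and overlapped for 10, while groups lay apart in either direction for 32.9% of tested genes. The summed CPM of the 36 was 5008, 5146 and 4857 in the 3 Nf2-knockout libraries, against 6143, 6248 and 6456 in the 3 controls. In bulk RNA, fewer cells of a type and less RNA per cell cannot be told apart. Summed macrophage and fibroblast genes were lower too, without overlap, and summed cell division genes were higher (sums above). The fibroblast genes were mixed, with 6 of 10 negative and 4 positive. Of the 10, 2 were called lower (20%, against 5.18% of all tested genes that fell and 9.29% that changed). All 14 tested macrophage genes had a negative sign and 5 fell (35.7%), and 9 of 12 cell division genes rose (75%). The part of these lists in the result was not tested.

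**Figure D1:**
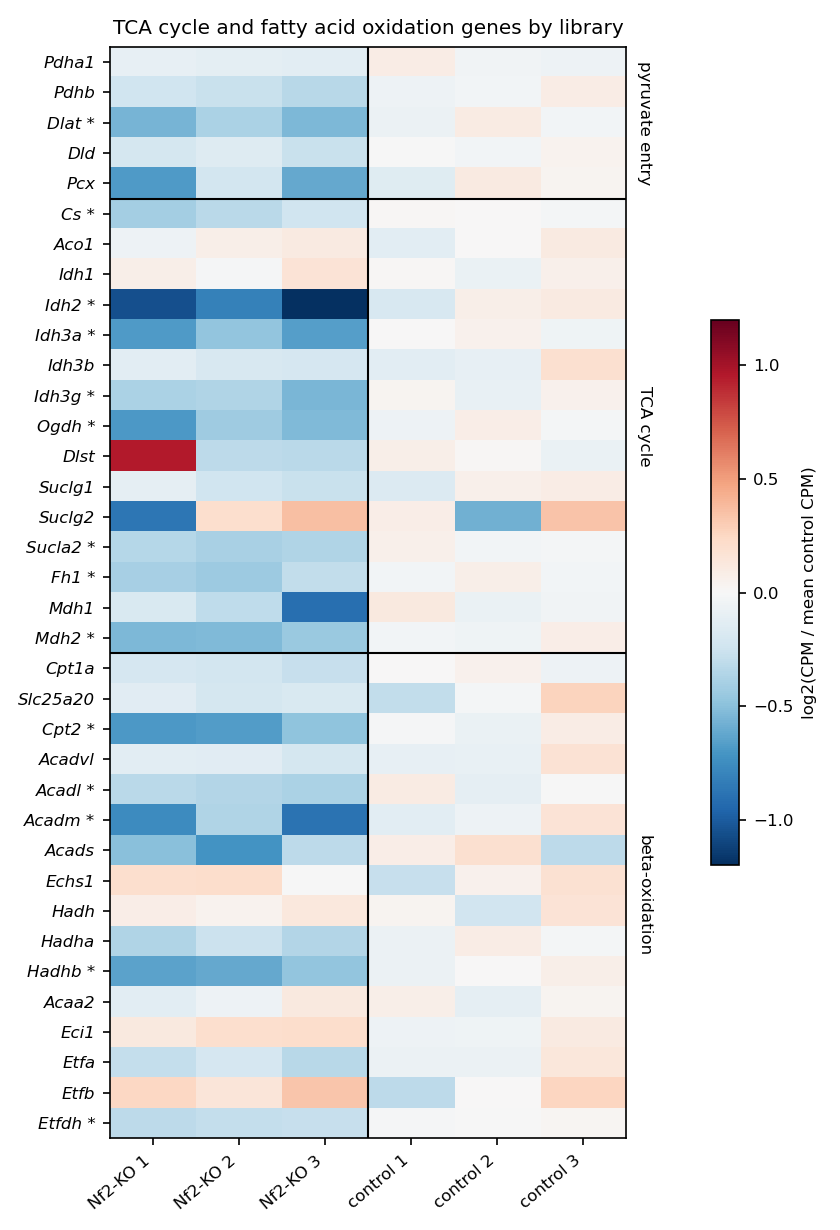
Heat map of the 36 genes (rows, grouped by step) in the 3 Nf2-knockout (left) and 3 control libraries, coloured by log2 of the CPM over the gene's mean control CPM; asterisks mark genes with an adjusted p under 0.05. The 3 Nf2-knockout columns lie below all 3 control columns for 25 of the 36 genes, with Idh2 lowest, and Dlst stands out in Nf2-knockout replicate 1.

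The number of falls depended on single libraries. It was 1 without Nf2-knockout replicate 1, 8 when Nf2-knockout replicate 2 was dropped and 4 when replicate 3 was. Dropping control replicate 1, 2 or 3 left 7, 5 and 8 falls, with 0 rises in every fit. Falls over all tested genes dropped too, to 320 without Nf2-knockout replicate 1, 706 without replicate 2 and 405 without replicate 3, against 944 with all 6 libraries. They numbered 527, 382 and 593 without control replicate 1, 2 and 3. Of the 36, Idh2 was the only gene called in all 6 of these fits. The other 13 had adjusted p from 0.0553 to 0.196 without Nf2-knockout replicate 1, and the median log2 fold change of the 36 stayed between −0.31 and −0.24 over the 6 fits. In limma on log2(FPKM + 0.1), 7 genes fell and 0 rose (Dlat, Mdh2, Ogdh, Cpt2, Idh2, Idh3a and Hadhb). FPKM shifted the median of all genes to 0.09, and that of the 36 was −0.18, lower than all genes by 0.27 in both scalings.

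**Figure D2:**
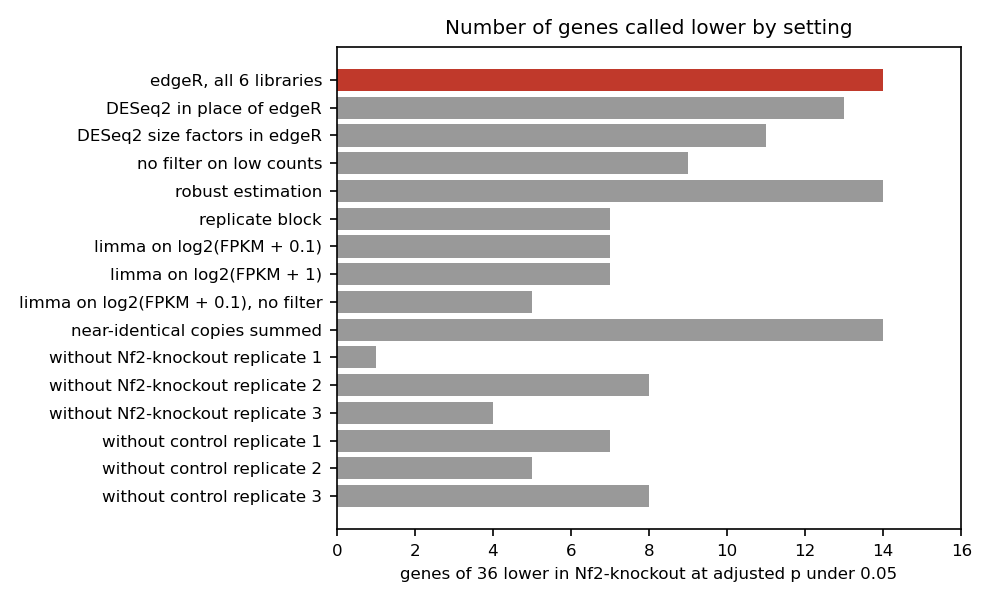
Bars give how many of the 36 genes were lower in Nf2-knockout at an adjusted p under 0.05 under each processing setting (rows). The number was 14 with all 6 libraries in edgeR, 13 with DESeq2, 7 with limma on log2(FPKM + 0.1) and 1 without Nf2-knockout replicate 1.

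At pyruvate entry, Dlat fell and the other 4 genes did not pass, although all 5 had lower values in every Nf2-knockout library than in any control. Dlat, the acetyltransferase core of pyruvate dehydrogenase (chromosome 9, 50634633 to 50659780), stood at 126, 143 and 128 CPM in Nf2-knockout libraries, against 177, 198 and 181 CPM in controls. Its log2 fold change was −0.49 (SE 0.0899, edgeR adjusted p = 0.0205), a call lost when Nf2-knockout replicate 1 (adjusted p = 0.0948), Nf2-knockout replicate 3 (0.0884) or control replicate 2 (0.0728) was dropped. Pdha1, the E1α subunit that is switched off by phosphorylation, stood at 389, 385 and 383 CPM in Nf2-knockout libraries, against 445, 406 and 401 CPM in controls. This difference of −0.11 (log2, SE 0.0787) did not pass (adjusted p = 0.433). Pdhb, the E1β subunit (−0.28, adjusted p = 0.0805), and Dld, the dihydrolipoyl dehydrogenase shared with the 2-oxoglutarate dehydrogenase complex (−0.21, adjusted p = 0.140), lay between. Pcx, pyruvate carboxylase, which refills the cycle with oxaloacetate, had 193, 264 and 201 CPM in Nf2-knockout libraries, against 279, 332 and 316 CPM in controls. Its log2 fold change of −0.49 (SE 0.140) missed the threshold (adjusted p = 0.0756) with wider replicate spread than Dlat, and it passed with DESeq2 and without Nf2-knockout replicate 2 (adjusted p = 0.0276). Lrfn4, on the opposite strand, overlaps Pcx and had 14.1% as many counts; whether counting used strand is not stated.

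The largest fall of all 36 was that of Idh2, the mitochondrial NADP-dependent isocitrate dehydrogenase, which supplies NADPH to the matrix. Idh2 (chromosome 7, 80094846 to 80115392, minus strand) stood at 128, 152 and 113 CPM in Nf2-knockout libraries, against 232, 279 and 287 CPM in controls, 50.8% lower in the mean. The groups lay far apart, and the log2 fold change was −1.02 (SE 0.137, edgeR adjusted p = 0.00823). Idh1, the cytosolic enzyme of the same reaction (chromosome 1, 65158616 to 65186500), stood at 310.0, 291 and 331 CPM in Nf2-knockout libraries, against 297, 279 and 308 CPM in controls, and the groups overlapped (0.08, SE 0.0856, adjusted p = 0.646). Within each library Idh1 had 2.41, 1.92 and 2.93 counts per Idh2 count in Nf2-knockout and 1.28, 0.999 and 1.07 in control. This ratio does not depend on library scaling, and its log2 differed by 1.10 between the groups, with no overlap (exact two-sided permutation test p = 0.1, the smallest that 3 against 3 libraries allow; adjusted p = 0.16 over 8 pairs). A RefSeq promoter window of each isozyme (GRCm38.p6, 250 bases before to 50 after the start) is shown because these transcripts parted most within the set. Capitals mark a CCAAT box on either strand, the one motif of those searched that either window shown holds. Another Idh1 window (chr1:65179093-65179392, not shown) holds none of the motifs searched.
Idh2, minus strand, chr7:80115301-80115600: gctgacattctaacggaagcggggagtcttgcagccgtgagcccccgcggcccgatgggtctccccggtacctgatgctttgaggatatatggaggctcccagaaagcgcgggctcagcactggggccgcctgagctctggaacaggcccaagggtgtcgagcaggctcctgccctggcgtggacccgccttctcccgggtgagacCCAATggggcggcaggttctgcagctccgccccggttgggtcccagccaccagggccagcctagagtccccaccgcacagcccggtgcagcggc
Idh1, minus strand, chr1:65186430-65186729: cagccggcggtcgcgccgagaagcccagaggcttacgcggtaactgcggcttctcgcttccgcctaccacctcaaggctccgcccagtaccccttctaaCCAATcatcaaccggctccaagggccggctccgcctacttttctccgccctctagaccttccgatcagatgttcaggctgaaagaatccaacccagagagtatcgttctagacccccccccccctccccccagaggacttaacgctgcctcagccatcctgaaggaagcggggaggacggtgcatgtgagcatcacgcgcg

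Of the NAD-dependent isocitrate dehydrogenase, which commits isocitrate to the cycle, 2 of 3 subunits fell. Its catalytic subunit Idh3a (chromosome 9, 54586334 to 54604661) stood at 199, 231 and 202 CPM in Nf2-knockout libraries, against 319, 331 and 307 CPM in controls. The log2 fold change was −0.60 (SE 0.0893, edgeR adjusted p = 0.0105), lost when Nf2-knockout replicate 1 (adjusted p = 0.0578) or 3 (0.0510) was dropped. Idh3g, a regulatory subunit, had 76.8, 77.7 and 68.2 CPM in Nf2-knockout libraries, against 102, 93.9 and 104 CPM in controls (−0.43, adjusted p = 0.0308). Idh3b, the other of these subunits, differed by −0.17 and did not pass (adjusted p = 0.362), and the opposite-strand gene Nop56 that overlaps it had 23.4% as many counts. The Idh3g call was lost in all 6 fits without 1 library, with adjusted p from 0.0662 to 0.119.

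Of the other 11 genes of the cycle, Cs, Ogdh, Sucla2, Fh1 and Mdh2 fell, and Aco1, Idh1, Dlst, Suclg1, Suclg2 and Mdh1 did not pass. Cs, citrate synthase, which joins acetyl-CoA to oxaloacetate, stood at 211, 223 and 237 CPM in Nf2-knockout libraries, against 282, 281 and 275 CPM in controls (log2 fold change −0.32, SE 0.0781, edgeR adjusted p = 0.0480). Aco1, the cytosolic aconitase that doubles as an iron-responsive RNA-binding protein, averaged 60.1 ± 3.66 CPM in Nf2-knockout, with 58.4 ± 4.63 CPM for control (adjusted p = 0.850), with the groups overlapping. Ogdh, the first subunit of 2-oxoglutarate dehydrogenase (chromosome 11, 6291633 to 6356642), stood at 276, 329 and 308 CPM in Nf2-knockout libraries, against 426, 469.9 and 436 CPM in controls. It fell by 0.54 on the log2 scale (SE 0.0950, adjusted p = 0.0174), and the call was lost without Nf2-knockout replicate 1 (0.0730), Nf2-knockout replicate 3 (0.0690) and control replicate 2 (0.0651). Dlst, the succinyltransferase core of that complex, had 160.4 CPM in Nf2-knockout replicate 1, against 66.8 and 66.5 CPM in Nf2-knockout replicates 2 and 3 and 87.0, 83.6 and 78.5 CPM in controls. That 1 library set the sign of its fold change, 0.24 (SE 0.336, adjusted p = 0.723) with all libraries and −0.30 (adjusted p = 0.180) without it. Rap2a, 95.7% identical to Dlst over 325 bases, had 33.7% as many counts. The Cs call was lost in all 6 fits without 1 library (adjusted p from 0.0742 to 0.196).

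Succinyl-CoA ligase pairs the shared subunit Suclg1 with Sucla2 in its ATP-forming form or Suclg2 in its GTP-forming form. Sucla2 fell, at 96.2, 93.2 and 95.1 CPM in Nf2-knockout libraries, against 127, 119 and 120.3 CPM in controls (log2 fold change −0.37, SE 0.0744, edgeR adjusted p = 0.0272). Suclg2 had 20.5, 43.0 and 48.1 CPM in Nf2-knockout libraries, against 39.7, 25.2 and 47.7 CPM in controls, and varied more than 2-fold within Nf2-knockout. Its difference was −0.01 with an SE of 0.348 (adjusted p = 0.990), and the sign changed with DESeq2 and with FPKM; the pseudogene Gm15163, 98.9% identical over 1302 bases, had 17.0% as many counts. Suclg1 differed by −0.20 (adjusted p = 0.260) with overlapping groups. Fh1, fumarase, stood at 91.9, 89.9 and 98.6 CPM in Nf2-knockout libraries, against 119, 127 and 118 CPM in controls (−0.38, SE 0.0806, adjusted p = 0.0320). Mdh2, the mitochondrial malate dehydrogenase that closes the cycle (chromosome 5, 135778480 to 135790391), stood at 271, 274 and 290.2 CPM in Nf2-knockout libraries, against 387, 380.0 and 417 CPM in controls. It fell by 0.50 on the log2 scale (SE 0.0797, adjusted p = 0.0126), a call lost only without Nf2-knockout replicate 1 among the 6 fits (0.0693). Mdh1, its cytosolic counterpart in the malate-aspartate shuttle, had 345, 319 and 210.3 CPM in Nf2-knockout libraries, against 427, 372 and 381 CPM in controls. Nf2-knockout replicate 3 was the lowest of the 6, and a difference of −0.43 (SE 0.182) did not pass (adjusted p = 0.200). The calls for Sucla2 and Fh1 were held in 1 and 0 of the 6 fits, with adjusted p up to 0.108 and 0.128 without Nf2-knockout replicate 1.

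**Figure D3:**
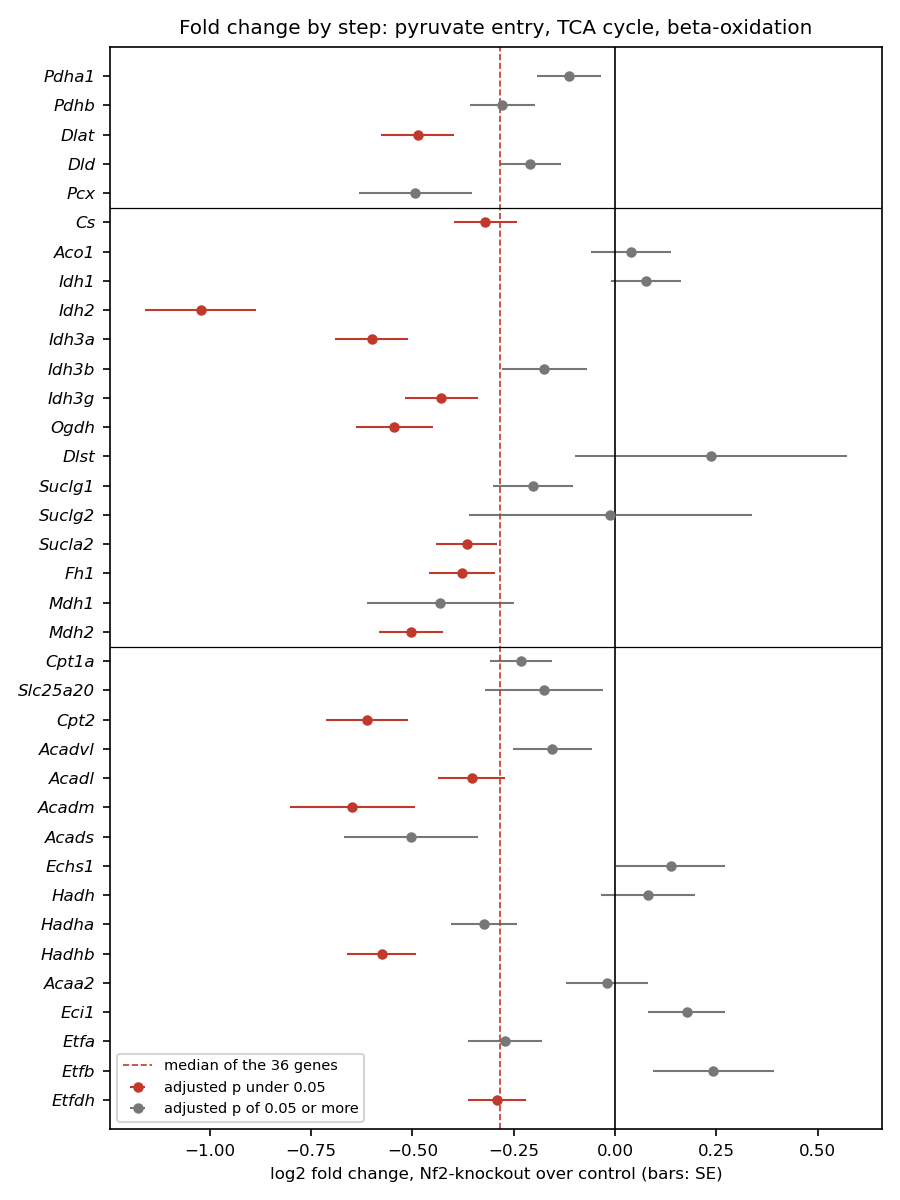
Points give the log2 fold change of Nf2-knockout over control for the 36 genes by step and bars the SE; red marks an adjusted p under 0.05 and the dashed line the median of −0.28. The 14 red points all lie left of 0, from −1.02 (Idh2) to −0.29 (Etfdh), and Dlst and Suclg2 have the widest bars.

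Of the carnitine shuttle, which carries long-chain fatty acids into the matrix, the inner-membrane enzyme fell. Cpt2, the carnitine palmitoyltransferase of the inner membrane (chromosome 4, 107903981 to 107923610), stood at 31.9, 32.2 and 36.6 CPM in Nf2-knockout libraries, against 50.8, 48.5 and 54.4 CPM in controls. It fell by 0.61 on the log2 scale (SE 0.101, edgeR adjusted p = 0.0144), lost without Nf2-knockout replicate 1 (0.0692) or replicate 2 (0.0531). Cpt1a, the outer-membrane enzyme that sets the rate of entry and is inhibited by malonyl-CoA, had 84.3, 83.3 and 80.1 CPM in Nf2-knockout libraries, against 97.3, 100.5 and 93.2 CPM in controls, apart but with a difference of −0.23 that did not pass (SE 0.0766, adjusted p = 0.114). Within libraries Cpt1a had 2.65, 2.59 and 2.19 counts per Cpt2 count in Nf2-knockout and 1.91, 2.07 and 1.71 in control (log2 difference 0.38, exact permutation p = 0.1, adjusted 0.16). Slc25a20, the carnitine-acylcarnitine carrier, differed by −0.18 with overlapping groups (adjusted p = 0.521).

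Among the acyl-CoA dehydrogenases, which start each round of β-oxidation and differ in the chain length they prefer, the medium-chain and long-chain genes fell. Acadm, the medium-chain enzyme (chromosome 3, 153922357 to 153944632), stood at 132, 174 and 121 CPM in Nf2-knockout libraries, against 204, 213 and 249.9 CPM in controls. Its log2 fold change was −0.65 (SE 0.154, edgeR adjusted p = 0.0445), a call held only without Nf2-knockout replicate 2 among the 6 fits, with adjusted p up to 0.160 without Nf2-knockout replicate 1. Acadl, the long-chain enzyme, had 123, 120.4 and 118 CPM in Nf2-knockout libraries, against 165, 143 and 154 CPM in controls (−0.35, SE 0.0828, adjusted p = 0.0426, called in 0 of the 6 fits, adjusted p from 0.0695 to 0.153). Acadvl, the very-long-chain enzyme, had 152, 151 and 143 CPM in Nf2-knockout libraries, against 155, 155 and 186 CPM in controls and did not pass (−0.15, SE 0.0978, adjusted p = 0.387). Its overlapping opposite-strand neighbour Dvl2 had 15.8% as many counts. Acads, the short-chain enzyme, differed by −0.50 with a wide error (SE 0.166, adjusted p = 0.113), and its groups nearly met, at 33.3 CPM in Nf2-knockout replicate 3 and control replicate 3.

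The mitochondrial trifunctional protein, which carries out the last 3 reactions of long-chain β-oxidation, is built from Hadha and Hadhb, neighbours on chromosome 5 that are transcribed away from each other. Hadhb, the thiolase subunit (30155248 to 30184593, plus strand), stood at 91.2, 93.3 and 102 CPM in Nf2-knockout libraries, against 135, 143 and 149 CPM in controls. It fell by 0.58 on the log2 scale (SE 0.0854, edgeR adjusted p = 0.0105), lost only without Nf2-knockout replicate 1 among the 6 fits (0.0553). Hadha, the hydratase and dehydrogenase subunit (30118304 to 30155162, minus strand), had 184, 197 and 185 CPM in Nf2-knockout libraries, against 225, 252 and 232 CPM in controls and just missed the threshold (−0.32, SE 0.0814, adjusted p = 0.0536). A processed copy, Hadhb-ps, is 99.8% identical to Hadhb over 1428 bases and held 34.2% as many counts, so the authors' counting could have split reads between them. Hadhb-ps stood at 35.3 ± 3.19 CPM in Nf2-knockout, with 46.4 ± 1.57 CPM for control (−0.39, adjusted p = 0.0581). With the counts of the near-identical copies added, an alternative chosen after seeing the data, Hadhb fell by 0.53 (adjusted p = 0.00975). The RefSeq starts of Hadha and Hadhb lie 273 bases apart and their windows share 228 bases. The Hadhb window is shown because it covers most of the stretch between these starts; it holds none of the motifs searched, so no letter is in capitals.
Hadhb, plus strand, chr5:30155003-30155302: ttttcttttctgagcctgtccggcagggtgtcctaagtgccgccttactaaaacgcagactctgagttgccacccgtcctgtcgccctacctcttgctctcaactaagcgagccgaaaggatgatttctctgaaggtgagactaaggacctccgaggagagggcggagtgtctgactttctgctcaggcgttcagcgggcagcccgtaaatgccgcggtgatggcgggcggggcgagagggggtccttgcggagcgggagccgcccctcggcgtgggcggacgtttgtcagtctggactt

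The single-function enzymes that act after dehydrogenation on shorter chains did not pass the test. Echs1, the short-chain enoyl-CoA hydratase (0.14, edgeR adjusted p = 0.590), Hadh, the hydroxyacyl-CoA dehydrogenase (0.08, adjusted p = 0.724), and Acaa2, the thiolase (−0.02, adjusted p = 0.934), all had overlapping groups. Eci1, the isomerase for unsaturated chains, was the 1 gene of the 36 whose Nf2-knockout libraries all lay above the controls, at 35.4, 37.7 and 37.8 CPM in Nf2-knockout, against 31.3, 31.6 and 35.2 CPM in control, and it did not pass (0.18, adjusted p = 0.313). The signs of Hadh and Acaa2 were not stable, with −0.0193 for Hadh without control replicate 2 and 0.0801 for Acaa2 on FPKM.

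Electrons from these dehydrogenases pass through the electron transfer flavoprotein, the dimer of Etfa and Etfb, to its ubiquinone oxidoreductase Etfdh. Etfdh stood at 89.3, 91.3 and 91.7 CPM in Nf2-knockout libraries, against 109.6, 110.4 and 113 CPM in controls, a small difference with little spread (log2 fold change −0.29, SE 0.0718, edgeR adjusted p = 0.0498). The call was lost in each of the 6 fits (adjusted p from 0.0838 to 0.194), and an opposite-strand gene overlaps it with 7.08% as many counts. Etfa had 167, 176 and 162 CPM in Nf2-knockout libraries, against 193, 194 and 223 CPM in controls (−0.27, adjusted p = 0.116), and Etfb had 73.7, 68.7 and 78.5 CPM in Nf2-knockout, against 50.1, 62.3 and 74.3 CPM in control (0.24, adjusted p = 0.371). Neither subunit passed, yet their ratio within a library did not overlap, with 2.27, 2.57 and 2.06 Etfa counts per Etfb count in Nf2-knockout and 3.85, 3.11 and 3.00 in control (log2 difference −0.53, exact permutation p = 0.1, adjusted p = 0.16).

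Of the 8 pairs compared within libraries, 5 had groups that did not overlap, each at the smallest p of 0.1, and none passed after adjustment. Besides Idh1/Idh2, Cpt1a/Cpt2 and Etfa/Etfb these were Hadha/Hadhb (log2 difference 0.25) and Acadl/Acadvl (−0.20), whose groups nearly met at 0.825 in an Nf2-knockout and 0.827 in a control library. Hadha had 2.02, 2.11 and 1.81 counts per Hadhb count in Nf2-knockout and 1.66, 1.76 and 1.55 in control. By the same exact permutation test, groups overlapped for Pcx/Pdha1 (−0.39, p = 0.2), Suclg2/Sucla2 (0.31, p = 0.5) and Mdh1/Mdh2 (0.04, p = 0.9). The sign for Mdh1/Mdh2 changed when Nf2-knockout replicate 1, Nf2-knockout replicate 2 or control replicate 3 was left out.

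**Figure D4:**
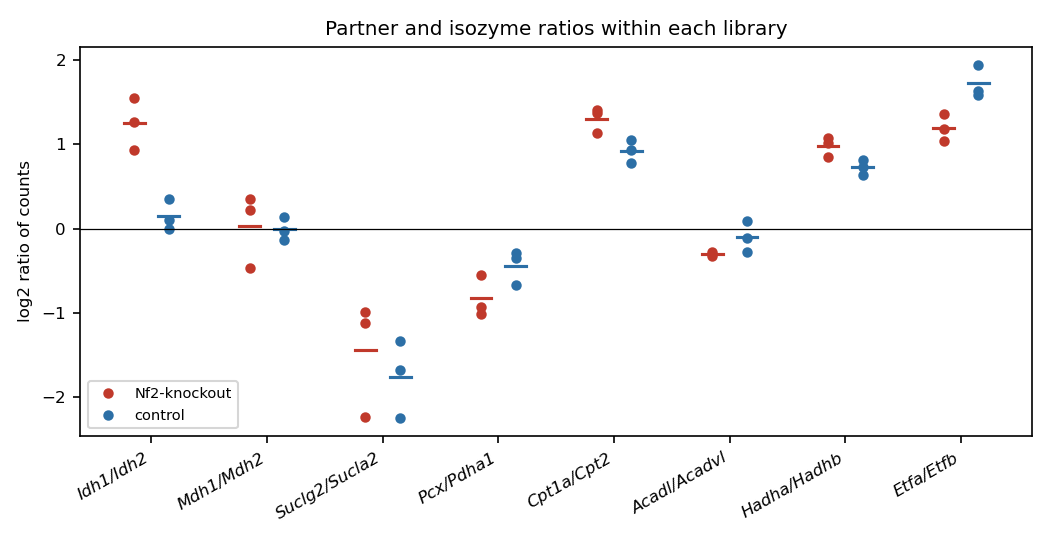
Points give the log2 ratio of the counts of 2 genes within each library for 8 pairs, Nf2-knockout in red on the left and control in blue on the right, with lines at the group means. Idh1/Idh2 shows the widest gap (1.10), while Mdh1/Mdh2 and Suclg2/Sucla2 overlap.

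Levels between genes were compared per length, in FPKM. In control libraries the most abundant of the 36 were Mdh1 (128 ± 10.2 FPKM), Pdha1 (97.1 ± 6.08), Mdh2 (96.2 ± 4.27), Etfa (96.1 ± 7.45), Idh1 (92.3 ± 4.31) and Idh2 (89.3 ± 9.53), each with n = 3, and neighbours in this order did not differ beyond their spread except for Mdh1. The least abundant by FPKM were Suclg2 (7.05 ± 2.12 FPKM), Dlst (7.54 ± 0.435) and Slc25a20 (8.45 ± 1.59). This order rests on the gene lengths that the authors used for FPKM. In CPM, which is not scaled by length, control Dlst (83.1 ± 4.28) stood above Eci1 (32.7 ± 2.17), Acads (41.4 ± 7.24) and Cpt2 (51.2 ± 2.95). In Nf2-knockout libraries Idh1 (104 ± 7.51 FPKM) and Mdh1 (102.0 ± 24.3) led, and Idh2 stood at 47.1 ± 6.78 FPKM.

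Genes around these pathways, on lists of their own, moved in both directions. Of 96 neighbouring genes, 18 fell and 4 rose, all 96 were tested, and the median log2 fold change was −0.15. In all, 22.9% of them changed, against 9.29% of all tested genes, while 4 rises in 96 are close to the background of 4.11%. The 4 rises were Me1 and Me2, the cytosolic and mitochondrial malic enzymes, Glud1, glutamate dehydrogenase, and Glul, glutamine synthetase. All 4 are on the list of the TCA cycle's surroundings (23 genes, 6 falls), of which 43.5% changed. Glul was named after its values were seen. Me2 averaged 48.9 ± 3.18 CPM in Nf2-knockout, with 29.8 ± 1.37 CPM for control (0.71, edgeR adjusted p = 0.00828, called in all 6 fits without 1 library), and Glud1 269 ± 9.66 and 199 ± 6.99 CPM (0.44, adjusted p = 0.0169, 2 of 6 fits). The aspartate-glutamate carrier Slc25a12 fell by 0.58 (3 of 6 fits). Sdhc and Sdhd, membrane subunits of succinate dehydrogenase that were picked after their values were seen, fell by 0.48 and 0.59 (2 of 6 fits each).

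Of 12 genes of pyruvate handling, 5 fell and 0 rose by edgeR (41.7%, against 5.18% of all tested genes that fell). With no adjustment, 6 of the 12 had an edgeR p under 0.05, against 24.8% of all tested genes. Inhibitory kinases and an activating phosphatase of pyruvate dehydrogenase were among the falls. Pdk2 averaged 45.0 CPM in Nf2-knockout and 83.5 CPM on average in control (−0.89, SE 0.119, adjusted p = 0.00822, all 6 fits), Pdk4 100.9 ± 14.5 and 149.7 ± 11.8 CPM (−0.57, 1 of 6 fits), and the phosphatase Pdp1 106 ± 1.44 and 153 ± 13.0 CPM (−0.53, 3 of 6 fits). Mpc2, a subunit of the mitochondrial pyruvate carrier, fell by 0.49 (1 of 6 fits), and Ldhb, the heart-type lactate dehydrogenase subunit, fell to 615 ± 219 CPM in Nf2-knockout, against 1610.3 ± 331 CPM in control (−1.39, 2 of 6 fits). Among 24 genes of fatty acid supply, 2 fell (8.33%, against 5.18% of all tested genes that fell and 9.29% that changed). They were Cpt1b, the muscle-type carnitine palmitoyltransferase (−1.07, 4 of 6 fits), and Slc22a5, the carnitine importer (−0.74, 5 of 6 fits). Among 22 genes of other mitochondrial oxidation, 3 fell (13.6%, against the same 5.18% and 9.29%), a share that rests on few genes. Bdh1 averaged 19.9 ± 3.47 CPM in Nf2-knockout, with 50.9 ± 5.58 CPM for control (−1.35, all 6 fits). The other falls on this list were Oxct1 (−0.47, 1 of 6 fits) and Acat1 (−0.42, 2 of 6 fits). Of 15 peroxisomal β-oxidation genes 2 fell (13.3%, against the same 5.18% and 9.29%), again few genes. The acyl-CoA oxidase Acox3 was among them (−0.36, 0 of 6 fits).

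Of 36 subunits of respiratory complex I, 8 fell and 0 rose (22.2%, against 5.18% of all tested genes that fell). With no adjustment 22 had an edgeR p under 0.05, against 24.8% of all tested genes, and the median log2 fold change was −0.34. The sign was negative for 35 of the 36 subunits (51.1% of all tested genes). The groups lay apart with Nf2-knockout lower for 23 (17.4% of all tested genes). Of 19 glycolysis genes 0 passed in edgeR, 5 had an unadjusted p under 0.05, and the median was −0.20. Of all tested genes 24.8% had such a p, a share close to that of the glycolysis genes. Ldha also stands on the pyruvate list. Differences between these lists and the 36 genes were not tested.

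Promoter windows were matched for 34 of the 36 genes (41 windows, several for a few genes). The core of the element bound by estrogen-related receptors, orphan receptors known for driving oxidative genes, was searched as AAGGTCA on both strands and stood in 2 of 41 windows (4.88%), against 4.72% of 32851 windows of all genes. The direct-repeat element of PPAR receptors, a pair of AGGTCA sites with 1 base between that overlaps the preceding motif, was in 0 of 41 and in 0.0396% of all windows. The element of NRF1, a regulator of nuclear genes for mitochondria (GCGC, any base, then TGCGC), was in 4 of 41 (9.76%, against 4.6%), and the TEAD core GGAATG, bound by the partners of YAP, in 4 of 41 (9.76%, against 14.7%). CCAAT, the box of NF-Y, was in 22 of 41 (53.7%, against 37.4%). Ogdh alone gave 6 of these 22 windows, some overlapping, and counted by gene the box was found for 16 of 34. The Acadm window is shown because it holds the receptor core, in capitals on the opposite strand.
Acadm, minus strand, chr3:153944594-153944893: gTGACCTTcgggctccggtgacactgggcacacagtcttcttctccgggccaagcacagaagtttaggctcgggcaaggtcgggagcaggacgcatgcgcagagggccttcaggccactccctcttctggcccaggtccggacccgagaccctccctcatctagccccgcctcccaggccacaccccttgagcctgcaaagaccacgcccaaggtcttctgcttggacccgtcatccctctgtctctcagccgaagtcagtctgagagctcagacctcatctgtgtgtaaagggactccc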

How the data were processed

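RNA-seq of 3 Nf2-knockout and 3 control libraries was used, grouped by sample title. Per the submitters' processing notes, cutadapt 1.9, HISAT2 2.0.4, StringTie 1.3.4d and edgeR were used. The genome build, the counter and strand use are not given in the sources used here. In the deposited table the authors give a whole-number count and an FPKM value per gene and library. The FPKM were scaled by the authors to length and depth, with a count of 0 written as 0.0001. Positions of 33 of the 36 genes equal those of GENCODE M21 (GRCm38), and those of Sucla2, Mdh1 and Mdh2 differ in start, end or both.

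Counts were tested with edgeR 4.0.16 in R 4.3.3 (filterByExpr, TMM, glmQLFit and glmQLFTest on group), two-sided, with Benjamini-Hochberg adjustment over 18218 genes and a threshold of 0.05. CPM use TMM-scaled totals, errors are SD (n = 3), and SE is log2 fold change size divided by √F. Pair ratios were compared by the exact permutation test. Tests were checked on simulated data. Near-identical copies were found with minimap2 2.31 among GENCODE M21 transcripts (at least 300 bases at 90% identity). Alternatives were DESeq2 1.42.0, its size factors, no filter, robust estimation, a replicate block, limma 3.58.1 on log2(FPKM + 0.1) or log2(FPKM + 1) (FPKM of at least 0.5 in 3 libraries, or no filter) and leaving out each library. The genes and lists were chosen with earlier results of these data known. Values per library were given for called genes and for control points of each step, and up to 5 called genes were named per neighbouring list, apart from some not reported here.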

Additional observations from a re-analysis of the deposited data

How the results depend on the processing

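With each library left out in turn, the falls among the 36 genes numbered 1 to 8 and their median log2 fold change ranged from −0.31 to −0.24. The neighbouring genes then had 1 to 4 rises and 4 to 13 falls, and glycolysis and complex I genes 2 to 5 falls. Without a filter on low counts the 36 genes had 9 falls, and glycolysis and complex I genes 5. Limma on FPKM gave 7 falls with either pseudocount and 5 without a filter, at medians of −0.18, −0.17 and −0.18. In these 3 fits glycolysis and complex I genes had 4, 4 and 3 falls, and neighbours had 6 falls without the filter. With DESeq2 glycolysis and complex I genes had 14 falls. The cause of these differences between settings was not tested. On FPKM, 63.0% of all called genes were higher, against 44.2% on counts.

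The labels number the replicates and state no pairing. Deviations of same-numbered libraries correlated at −0.16, 0.01 and 0.02, and those of differently numbered libraries from −0.18 to 0.16. Deviations were taken within groups of 3, so these values cannot settle whether libraries shared a batch. With the replicate block the 36 genes had 7 falls, neighbours 2 rises and 10 falls, and glycolysis and complex I genes 4 falls.

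Signs reversed for Suclg2 (0.0065 with DESeq2, 0.0041 with its size factors, 0.0465 to 0.0469 on FPKM, −0.23 to 0.30 without 1 library), Acaa2 (0.0785 to 0.0801 on FPKM, −0.0860 to 0.0481 without 1 library), Dlst (−0.30 to 0.45), Aco1 (−0.0187 to 0.11) and Hadh (−0.0193 to 0.17), none of them called. The log2 difference of Mdh1/Mdh2 ranged from −0.12 to 0.29 without 1 library.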
